A study of Mus musculus with 2 samples.

Results

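Tight clusters of differentially methylated regions were examined in adipose progenitors of C57BL/6 mice. A cluster, called a chain here, is a run of 4 or more regions listed by the authors in which each region begins 5000 bases or less after the end of the one before it, on chromosomes 1 to 19. The rule found 144 chains with 651 regions, which is 2.31% of the 28141 regions listed. Position alone chose them, and neither the direction nor the size of the methylation difference was used.

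Whole-genome bisulfite sequencing, which converts unmethylated cytosines and leaves methylated ones, gave a level for each region, from 0 (no methylation read at its cytosines) to 1 (all reads methylated). The CD137 group is 1 library from cells sorted with magnetic beads for CD137, a co-stimulatory receptor, encoded by Tnfrsf9, that marks precursors of beige adipocytes. The CD140 group is 1 library from cells sorted for PDGFRα (CD140), the receptor for platelet-derived growth factor carried by mesenchymal progenitors. Both populations came from subcutaneous or visceral fat (which depot gave which library is not stated), were grown and differentiated with an adipogenic cocktail, and then received 1 µM dexamethasone, a glucocorticoid. The groups share that treatment, so its effect cannot be seen. With 1 library in each group no difference has a replicate check and no test between the groups was possible. Depth is unknown, so the levels carry no interval. In a bulk library a level between 0 and 1 can come from a share of the cells, a share of the alleles or both, and these cannot be told apart.

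Methylation of cytosines in CG dinucleotides is laid down by DNA methyltransferases and removed through oxidation by TET enzymes or by loss during replication. Promoters rich in CG are usually unmethylated, and distal enhancers often lose methylation when transcription factors occupy them. Broad unmethylated stretches are known over developmental transcription factor genes, among them the homeobox and T-box genes that pattern fat depots, where several regulatory elements lie close together.

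Most chains did not touch a listed start of a gene. In 13 chains, 17 regions overlapped a RefSeq promoter window, which runs from 250 bases before to 50 bases after a transcript start (GRCm38.p6, the assembly of mm10). Windows of 1 of the 19 chromosomes and of some genes were not used here. On the chromosomes with windows this is 2.70% of 629 regions in chains, against 1.62% of all 26732 listed regions. The following 7 windows were chosen to show the range among them, with CG-rich and CG-poor windows, both directions, and 1 chain that holds both. Capitals mark each CG that lies inside the listed region, and sequences are written 5′ to 3′ on the strand of the gene.
Hoxa5: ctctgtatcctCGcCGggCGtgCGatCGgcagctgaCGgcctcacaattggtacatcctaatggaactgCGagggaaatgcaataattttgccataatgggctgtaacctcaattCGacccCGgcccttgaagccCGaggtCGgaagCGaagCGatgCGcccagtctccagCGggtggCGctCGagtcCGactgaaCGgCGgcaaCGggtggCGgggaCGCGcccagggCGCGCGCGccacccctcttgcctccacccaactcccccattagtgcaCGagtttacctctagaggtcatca
Nfix: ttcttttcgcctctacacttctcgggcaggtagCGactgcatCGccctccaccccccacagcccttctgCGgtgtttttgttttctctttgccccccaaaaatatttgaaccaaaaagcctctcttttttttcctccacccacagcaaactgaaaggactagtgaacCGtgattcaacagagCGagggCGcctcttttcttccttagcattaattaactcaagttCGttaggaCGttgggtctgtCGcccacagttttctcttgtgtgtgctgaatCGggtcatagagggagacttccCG
Mbnl1: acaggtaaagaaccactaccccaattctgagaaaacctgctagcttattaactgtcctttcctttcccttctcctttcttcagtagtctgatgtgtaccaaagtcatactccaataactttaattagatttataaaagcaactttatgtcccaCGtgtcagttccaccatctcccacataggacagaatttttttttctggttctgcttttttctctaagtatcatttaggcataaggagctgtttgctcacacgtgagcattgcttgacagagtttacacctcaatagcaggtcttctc
Erg: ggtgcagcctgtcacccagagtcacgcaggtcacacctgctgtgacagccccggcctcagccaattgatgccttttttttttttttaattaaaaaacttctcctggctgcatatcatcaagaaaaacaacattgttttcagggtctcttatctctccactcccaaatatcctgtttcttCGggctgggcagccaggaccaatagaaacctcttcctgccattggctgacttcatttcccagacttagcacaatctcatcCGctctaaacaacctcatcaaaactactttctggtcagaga
Ripor2: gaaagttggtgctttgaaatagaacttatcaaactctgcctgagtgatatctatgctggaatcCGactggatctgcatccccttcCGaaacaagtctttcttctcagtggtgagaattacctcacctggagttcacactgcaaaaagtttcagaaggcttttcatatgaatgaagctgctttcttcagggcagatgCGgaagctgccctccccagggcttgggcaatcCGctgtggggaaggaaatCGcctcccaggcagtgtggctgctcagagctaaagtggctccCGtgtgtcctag
Arhgap45 upstream start: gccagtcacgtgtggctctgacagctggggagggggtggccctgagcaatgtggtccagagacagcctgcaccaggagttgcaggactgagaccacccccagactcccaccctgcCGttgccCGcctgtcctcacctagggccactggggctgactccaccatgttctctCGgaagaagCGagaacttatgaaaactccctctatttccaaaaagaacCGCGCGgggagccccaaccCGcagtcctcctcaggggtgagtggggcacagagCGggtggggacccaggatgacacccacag
Arhgap45 downstream start: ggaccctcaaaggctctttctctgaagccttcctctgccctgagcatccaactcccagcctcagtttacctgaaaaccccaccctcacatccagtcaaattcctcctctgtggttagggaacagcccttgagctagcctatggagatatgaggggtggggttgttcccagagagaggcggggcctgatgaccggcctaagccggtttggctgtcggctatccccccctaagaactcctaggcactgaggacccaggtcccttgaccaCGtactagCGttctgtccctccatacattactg

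The Hoxa5 window (chr6:52204538-52204837, minus strand) held 29 CG, all of them inside a region methylated to 0.185 in PDGFRα+ cells but to 0.665 in CD137+ cells. The Nfix window (chr8:84780033-84780332, minus strand) held 13 CG, of which 11 lay in a region with levels of 0.381 and 0.868. Both genes encode transcription factors, and both regions were less methylated in PDGFRα+ cells. Each level is that of the whole listed region, and no level was taken for a window itself. The Mbnl1 window (chr3:60472580-60472879, plus strand) held only 2 CG, 1 of them in a region at 0.940 in PDGFRα+ against 0.305 in CD137+. The Erg window (chr16:95459299-95459598, minus strand) held 4 CG, 2 of them in a region with levels of 0.934 and 0.270. The Ripor2 window (chr13:24614356-24614655, plus strand) held 6 CG, all in a region with levels of 0.858 and 0.244. These 3 windows belong to a splicing regulator, an endothelial ETS factor and a regulator of cell polarity and migration. The listed regions that overlap them were more methylated in PDGFRα+ cells.

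Arhgap45, a GTPase-activating protein gene of blood cells, has both directions at its own transcript starts. At the upstream start (chr10:80016665-80016964, plus strand) 9 of 10 CG lay in a region at 0.873 in PDGFRα+ against 0.220 in CD137+. At the downstream start (chr10:80019425-80019724, plus strand) 2 of 6 CG lay in a region with levels of 0.160 and 0.648. The 2 regions are thus opposite in direction within a single chain. Over all 17 windows overlapped by a region of a chain the median was 7 CG. The median was also 7 over the 31365 windows of the 18 chromosomes with windows, and the windows overlapped by any listed region had a median of 6. The motif GGAATG of the TEAD factors, searched on both strands, was found in 14.6% of all windows and in 1 of these 17, that of Gm38811, which is not among those printed.

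Regions in chains were mostly less methylated in PDGFRα+ cells, as listed regions were in general. Of the 651 regions, 464 were lower and 187 (28.7%, 95% Wilson interval 25.4 to 32.3) were higher in PDGFRα+ than in CD137+. Over all listed regions 22.3% were higher and 77.7% lower, and the share higher was 21.1% in regions with no neighbour within 5000 bases and 25.5% in chains of 2 or 3. The interval treats regions as independent, which neighbours are not. Averaged over chains, the share higher was 28.8%.

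The lower regions of chains had a median level of 0.251 (quartiles 0.161 and 0.349) in PDGFRα+ and 0.807 (0.720 and 0.870) in CD137+. The higher regions had a median of 0.872 (0.756 and 0.917) in PDGFRα+ and 0.302 (0.230 and 0.409) in CD137+. Each direction thus had a well methylated library and a library of low but not absent methylation. A level under 0.02 in either library was found in 0 of 651 regions of chains and in 0.274% of all 27774 regions, which is near the same share. A level under 0.1 in PDGFRα+ was found in 38 regions of chains (5.84%, against 4.83% of all), and in CD137+ in 0 (against 0.14% of all). An absolute difference of at least 0.5 was seen in 53.5% of the regions in chains and in 58.1% of all regions of chromosomes 1 to 19, so that regions in chains did not differ more widely between the libraries than regions elsewhere in the list. The widest difference of a lower region was in Plod2 (0.0895 in PDGFRα+ and 0.891 in CD137+), and that of a higher region in Rbms1 (0.948 and 0.214).

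**Figure D1:**
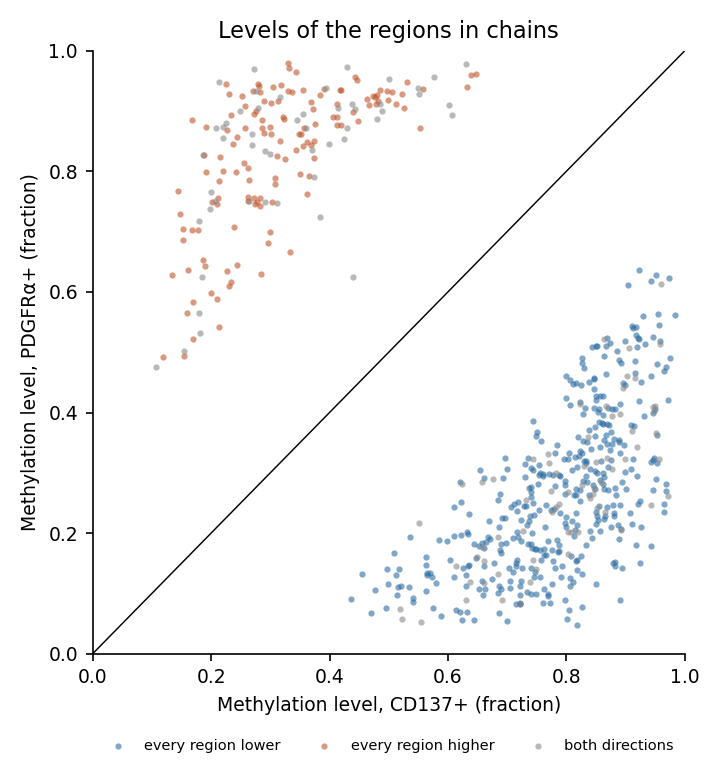
Methylation level of each of the 651 regions in chains, in CD137+ (x axis, fraction) and in PDGFRα+ cells (y axis, fraction). Points are coloured by whether every region of their chain was lower, every region was higher, or both directions occurred, and the black line marks equal levels. All points lie away from the line, 464 below and 187 above it.

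Directions agreed within most chains. Of the 144 chains, 86 had every region lower in PDGFRα+, 29 had every region higher and 29 held both directions, so that 115 chains (79.9%, 95% Wilson interval 72.6 to 85.6) had a single direction. If each region took its direction independently at the overall share, chains of these lengths would have a single direction in 33.1% of cases, with 47.4 chains lower throughout and 0.266 higher throughout. That value is arithmetic on the share and not a test. Chains of 4 had a single direction in 77 of 101 cases, chains of 5 in 22 of 26 and chains of 6 in 11 of 12. The 5 longest chains, of 7 to 12 regions, each had a single direction. Chains of 2 agreed in 82.3% of 2665 cases and chains of 3 in 69.5% of 420, against 65.3% and 48.0% for independent directions.

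**Figure D2:**
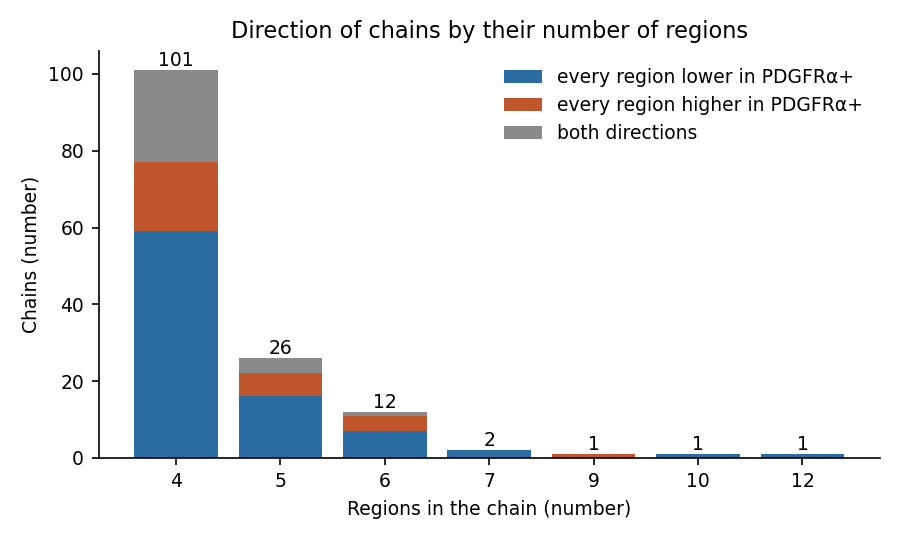
Number of chains (y axis) by the number of regions they hold (x axis), split by direction. The 101 chains of 4 regions include 24 with both directions, and the chains of 7 or more regions include none.

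Agreement was closest between regions with little space between them. Over all neighbouring pairs of chromosomes 1 to 19, 98.4% of 1228 pairs at a gap of up to 500 bases had the same direction, 84.3% of 471 pairs at 501 to 1000 bases and 77.6% of 666 pairs at 1001 to 2000 bases. At 2001 to 5000 bases it was 73.7% of 1638 pairs, and at 20001 to 50000 bases 67.0% of 6411. Independent directions at the share of each class would give 62.9% in the closest class and 64.4% in the 20001 to 50000 class. Agreement thus fell steeply over the first 5000 bases and came near the independent value from 20001 bases on. Inside the chains, 462 of 507 neighbouring pairs agreed (91.1%). There the median gap was 1156 bases between regions that agreed and 2609 bases between regions that did not, and only 1 of the 45 opposite pairs lay within 1000 bases. Whether close regions are pieces of 1 stretch divided by the authors' caller was not tested.

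**Figure D3:**
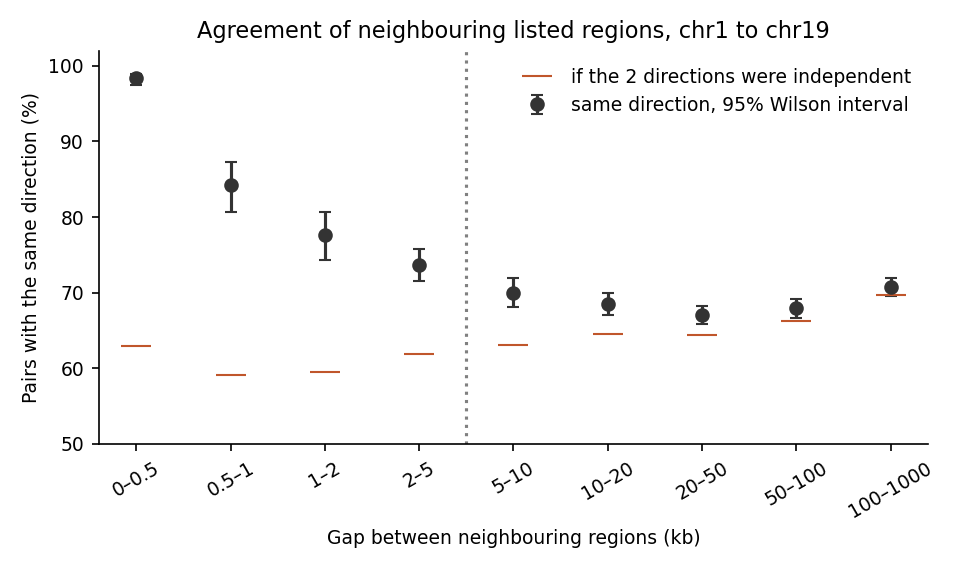
Percent of neighbouring listed regions with the same direction (y axis, from 50%) by the gap between them (x axis, kb), with 95% Wilson intervals; orange bars give the percent for independent directions. The dotted line marks the gap of 5000 bases that ends a chain, and agreement drops from 98.4% to 73.7% before it.

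Chains were short and sparsely filled. They spanned 1348 bases (at Ube3b) to 29222 bases (at Cdon), with a median of 7244, and the listed regions covered a median of 19.1% of the span. A chain held a median of 54 counted cytosines. Regions in chains had a median length of 247 bases and 10 cytosines, against 218 bases and 9 cytosines for regions without a neighbour, and the density was 4.49 against 4.60 cytosines per 100 bases. In 111 of the 115 chains (96.5%) the level ranges of the libraries did not overlap, against 99.6% of single-direction chains of 2 and 99.3% of those of 3. Regions were listed because they differ, so little can be read from these shares. The 4 exceptions were Nfia, Frmd4b, Msi2 and 1 of the chains in Hoxa3.

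At the limits of the rule, the widest gap joined was 5000 bases and the narrowest not joined 5008. Chains of 3, just outside, had 27.9% of 1260 regions higher and a median absolute difference of 0.504, and chains of 4, just inside, had 28.7% of 404 and 0.512. Their median spans were 4362 and 6740 bases.

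The longest chain, also the one with the most regions, lay in Cdon, which encodes a cell surface co-receptor for hedgehog ligands. Hedgehog signalling restrains adipogenesis in mesenchymal progenitors, and its co-receptors Cdon and Boc hold the ligand for the receptor Patched. The chain (chr9:35423679-35452900) held 12 regions, all lower in PDGFRα+. In order, the levels in PDGFRα+ were 0.0834, 0.235, 0.210, 0.286, 0.545, 0.529, 0.453, 0.333, 0.468, 0.280, 0.220 and 0.480. In CD137+ they were 0.722, 0.851, 0.876, 0.798, 0.956, 0.918, 0.807, 0.805, 0.964, 0.845, 0.810 and 0.953. The lowest PDGFRα+ level belonged to the first and longest region (2989 bases), and the libraries did not overlap. A second Cdon chain of 4 regions lay 29176 bases further on (chr9:35482077-35486951), also lower throughout, with levels of 0.213, 0.199, 0.307 and 0.191 in PDGFRα+ and 0.734, 0.633, 0.741 and 0.710 in CD137+. Over the whole gene, 16 of the 21 listed regions were in these chains and all 21 were lower.

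Chains in further hedgehog genes had the same direction. Boc, the co-receptor related to Cdon, held a chain of 6 (chr16:44534083-44539811) with levels of 0.172 to 0.446 in PDGFRα+ and 0.621 to 0.833 in CD137+. Disp1, which encodes the transporter that releases hedgehog ligands from producing cells, held a chain of 5 (chr1:183113621-183125016) with levels of 0.0958 to 0.274 in PDGFRα+ and 0.630 to 0.926 in CD137+. Of 22 hedgehog pathway genes on chromosomes 1 to 19, 15 had a listed region and 3 had a chain (13.6%), and every region of those chains was lower. This list was written after these genes were seen, so its count describes them only. Of all 20665 protein-coding genes, 131 (0.634%) had a region of a chain inside or within 2000 bases.

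Nuclear factor I genes, which encode transcription factors of mesenchymal and adipocyte differentiation, held 3 chains, all lower in PDGFRα+. The Nfix chain (chr8:84765739-84780733) had 7 regions with levels of 0.321, 0.245, 0.248, 0.0853, 0.168, 0.381 and 0.324 in PDGFRα+ and 0.946, 0.728, 0.712, 0.540, 0.690, 0.868 and 0.697 in CD137+. It includes the promoter window printed above. The Nfib chain of 4 (chr4:82496098-82503534) had mean levels of 0.220 and 0.675, and the Nfia chain of 4 (chr4:97924091-97932029) had 0.268 and 0.747. In Nfia the ranges met, from 0.0979 to 0.562 in PDGFRα+ and from 0.513 to 0.983 in CD137+. The chain is a small part of Nfia, with 4 of its 29 listed regions, whereas Nfix had 7 of 17 and Nfib 4 of 13.

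**Figure D4:**
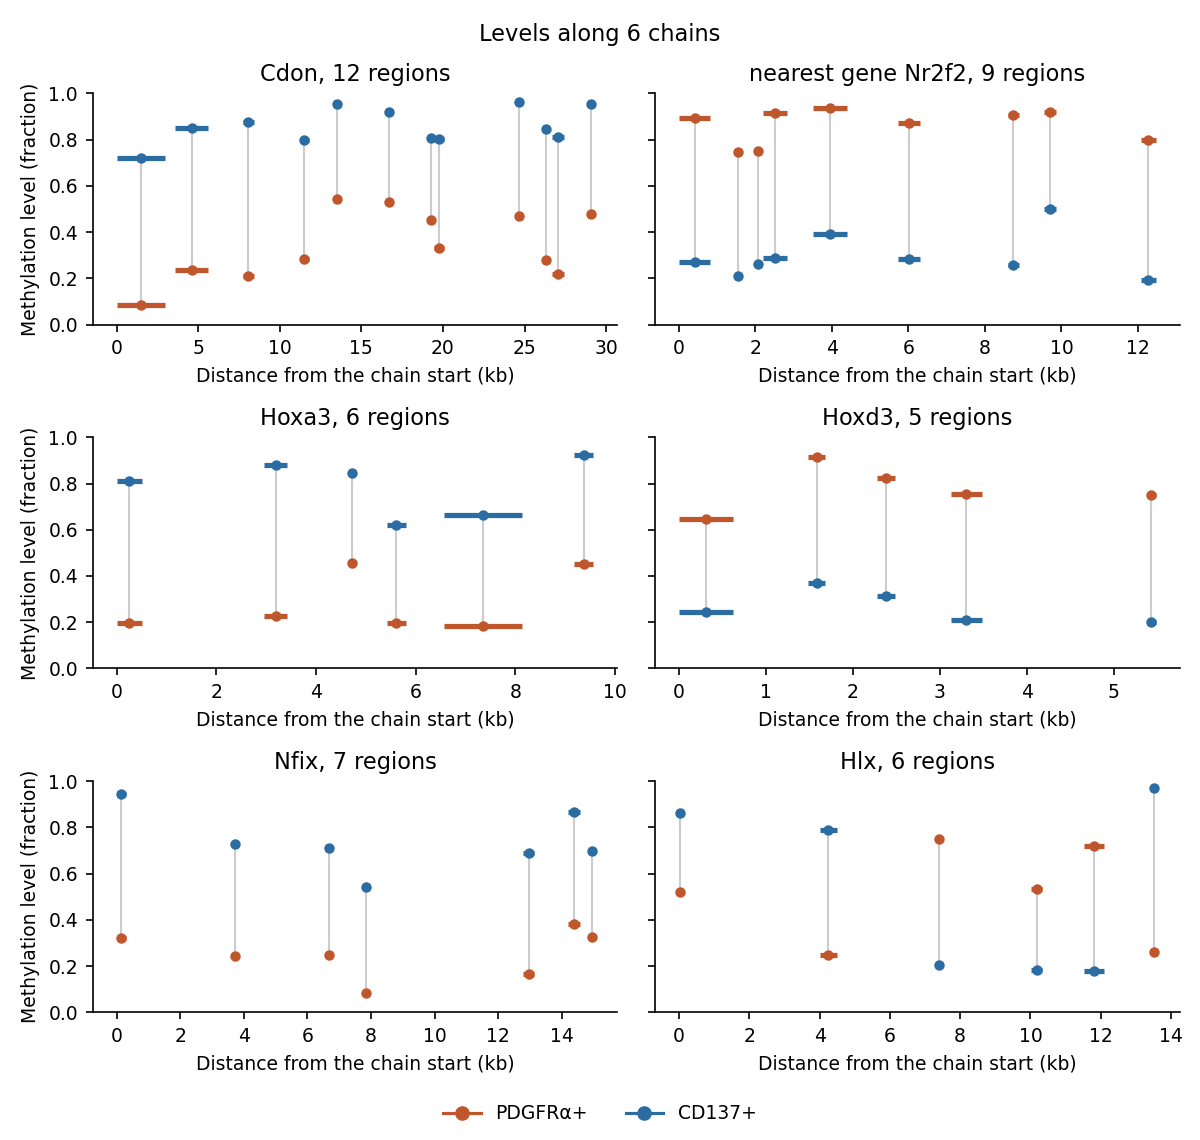
Methylation levels (y axis, fraction) in PDGFRα+ (orange) and CD137+ cells (blue) along 6 chains, by distance from the chain start (x axis, kb). Horizontal bars span each region, and grey lines join the 2 levels of a region. Cdon, Nfix and the Hoxa3 chain that reaches Hoxa6 are lower in PDGFRα+ throughout, Hoxd3 and the chain nearest Nr2f2 are higher throughout, and Hlx changes direction along its length.

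Homeobox clusters were opposite to each other. Hox genes encode the transcription factors that assign position along the body axis, and their expression differs between fat depots. In the HoxA cluster 2 chains of 6, 11826 bases apart, were lower throughout. The first (chr6:52171682-52185442), in Hoxa3, had levels of 0.363, 0.141, 0.456, 0.108, 0.522 and 0.105 in PDGFRα+ and 0.954, 0.498, 0.846, 0.653, 0.922 and 0.476 in CD137+, and the ranges of the libraries met at its least and most methylated regions. The second (chr6:52197269-52206832), at Hoxa3, Hoxa5 and Hoxa6, had levels of 0.196, 0.229, 0.458, 0.196, 0.185 and 0.450 against 0.812, 0.880, 0.847, 0.621, 0.665 and 0.925. It held the most cytosines of any chain (254), of which 148 were in the region over the Hoxa5 start.

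In the HoxD cluster 2 chains were higher throughout, 25772 bases apart. The Hoxd3 chain of 5 (chr2:74733105-74738587) had levels of 0.645, 0.915, 0.826, 0.756 and 0.750 in PDGFRα+ and 0.244, 0.369, 0.311, 0.211 and 0.201 in CD137+. The chain of 4 at Hoxd9 and Hoxd8 (chr2:74699297-74707332) had 0.750, 0.872, 0.877 and 0.792 against 0.277, 0.553, 0.412 and 0.365. The libraries did not overlap in either chain. No chain of 4 or more was found in the HoxB or HoxC genes of the list.

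The TALE homeobox genes, whose products bind DNA together with Hox proteins, were divided in the same way. Meis1 held a chain of 5 (chr11:19008099-19014540), lower throughout, with mean levels of 0.172 in PDGFRα+ and 0.718 in CD137+. Another lower chain of 5, whose nearest protein-coding gene is Meis1 at 125046 bases (chr11:18745825-18755382), had 0.127 and 0.638. The Meis2 chain of 4 (chr2:115853155-115859362) was the highest of all by mean difference (0.625), with levels of 0.972, 0.944, 0.943 and 0.935 in PDGFRα+ and 0.332, 0.225, 0.318 and 0.420 in CD137+. It lies beside the gene, and only 1 of its regions was within 2000 bases of the gene span. Of 47 genes in the homeobox patterning list, 9 (19.1%) had a chain, 5 lower and 4 higher, against 0.634% of all protein-coding genes. A listed region was found at 25 of the 47, and at 6333 of all 20665 protein-coding genes. The list was chosen with earlier results of these data known, so its count describes these genes only. Neighbouring Hox genes share regions, so these genes are not separate cases.

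Several transcription factor genes of mesenchyme and vessels had higher chains. T-box genes encode factors of limb and mesenchyme patterning. The Tbx2 chain of 6 (chr11:85828918-85841451) had levels of 0.862, 0.644, 0.863, 0.889, 0.758 and 0.862 in PDGFRα+ and 0.302, 0.190, 0.289, 0.413, 0.263 and 0.352 in CD137+. The Tbx18 chain of 5 (chr9:87726098-87732943) had mean levels of 0.849 and 0.412. The forkhead genes Foxc1 and Foxc2, which act in mesoderm and vessels, each held a chain of 5. Foxc1 (chr13:31804633-31810752) had 0.686, 0.814, 0.843, 0.926 and 0.800 in PDGFRα+ and 0.152, 0.256, 0.355, 0.384 and 0.221 in CD137+, and Foxc2 (chr8:121118045-121121259) had mean levels of 0.720 and 0.274. In Tbx2, Tbx18 and Foxc1 all 5 listed regions of the gene were in the chain, and in Foxc2 all 4. Higher chains of 4 lay also at Ebf3 (0.711 and 0.211), Pax8 (0.691 and 0.269), Isl1 (0.535 and 0.177) and Emx2 (0.794 and 0.220), each a transcription factor gene of development.

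The higher chain with the most regions lay away from protein-coding genes. It had 9 regions (chr7:70324231-70336699), 15247 bases from Nr2f2, which encodes the nuclear receptor COUP-TFII of mesenchyme and veins. Levels were 0.894, 0.745, 0.751, 0.917, 0.937, 0.872, 0.908, 0.918 and 0.799 in PDGFRα+ and 0.273, 0.210, 0.262, 0.289, 0.391, 0.285, 0.257, 0.499 and 0.191 in CD137+. Another chain of 4 (chr7:70279561-70287344) lay 36886 bases from that chain and 64602 bases from Nr2f2. It was also higher throughout, with mean levels of 0.798 and 0.283. All 13 regions of the 2 chains were thus more methylated in PDGFRα+. The HoxA, HoxD, Cdon and Nr2f2 pairs were the only kept chains that lay within 100 kb of each other, and in all 4 pairs both chains had the same single direction.

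Other higher chains with many regions lay in Mbnl1 and Elf1. The Mbnl1 chain of 6 (chr3:60468757-60481570) had levels of 0.868, 0.940, 0.926, 0.796, 0.935 and 0.941 in PDGFRα+ and 0.228, 0.305, 0.252, 0.351, 0.354 and 0.280 in CD137+. Elf1, an ETS transcription factor gene of blood and vessels, had 0.746, 0.851, 0.702, 0.767, 0.806 and 0.933 against 0.273, 0.317, 0.178, 0.145, 0.263 and 0.330 (chr14:79516315-79522646).

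The chain with the second most regions was lower throughout. It lay 53631 bases from the nearest protein-coding gene, Ppara, which encodes a nuclear receptor of fatty acid oxidation. It held 10 regions (chr15:85664446-85681279), with levels of 0.128, 0.510, 0.183, 0.0830, 0.243, 0.186, 0.265, 0.264, 0.131 and 0.188 in PDGFRα+ and 0.610, 0.868, 0.657, 0.722, 0.868, 0.769, 0.798, 0.884, 0.631 and 0.724 in CD137+. The libraries did not overlap. The chain of 7 at Jak3, a cytokine receptor kinase gene of lymphocytes, and Insl3, a peptide hormone gene inside the span given for Jak3, was also lower (chr8:71681755-71693326), with 0.335, 0.494, 0.121, 0.101, 0.210, 0.146 and 0.181 against 0.824, 0.864, 0.657, 0.684, 0.687, 0.562 and 0.741.

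Most of the extracellular matrix genes named here had chains lower in PDGFRα+. Lower was the direction of most genes at chains in general (78 of 131 lower throughout, 31 higher). Dcn, the gene of the collagen-binding proteoglycan decorin and a marker of fibroblast-like progenitors, had the lowest chain mean of all in PDGFRα+. Its 6 regions (chr10:97478246-97486786) had 0.0683, 0.0762, 0.0566, 0.0756, 0.0543 and 0.155 in PDGFRα+ and 0.686, 0.495, 0.644, 0.576, 0.699 and 0.756 in CD137+. Plod2, which encodes a lysyl hydroxylase of collagen, had 0.191, 0.306, 0.154, 0.109 and 0.0895 against 0.843, 0.840, 0.778, 0.705 and 0.891 (chr9:92559628-92572858). Fbln1, the gene of the matrix protein fibulin-1, had mean levels of 0.272 and 0.841 over 4 regions (chr15:85221086-85232719). Of 39 matrix genes in the list, 34 had a listed region and 3 (7.69%) had a chain, against 0.634% of all protein-coding genes. That list, too, was chosen with earlier results of these data known. Dcn and Fbln1 were lower throughout and Adamtsl1 had 4 lower regions and 1 higher. Outside the list and singled out after its values were seen, Ltbp4, which encodes a matrix protein that binds latent TGF-beta, was higher in 4 of 4 regions (chr7:27325637-27330393), with mean levels of 0.708 and 0.272. The widest mean differences of lower chains were those of 4 regions at Cenpp and Ippk (0.200 in PDGFRα+ and 0.875 in CD137+), of 4 in Thada (0.150 and 0.792) and of 5 in Plod2 (0.170 and 0.811).

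**Figure D5:**
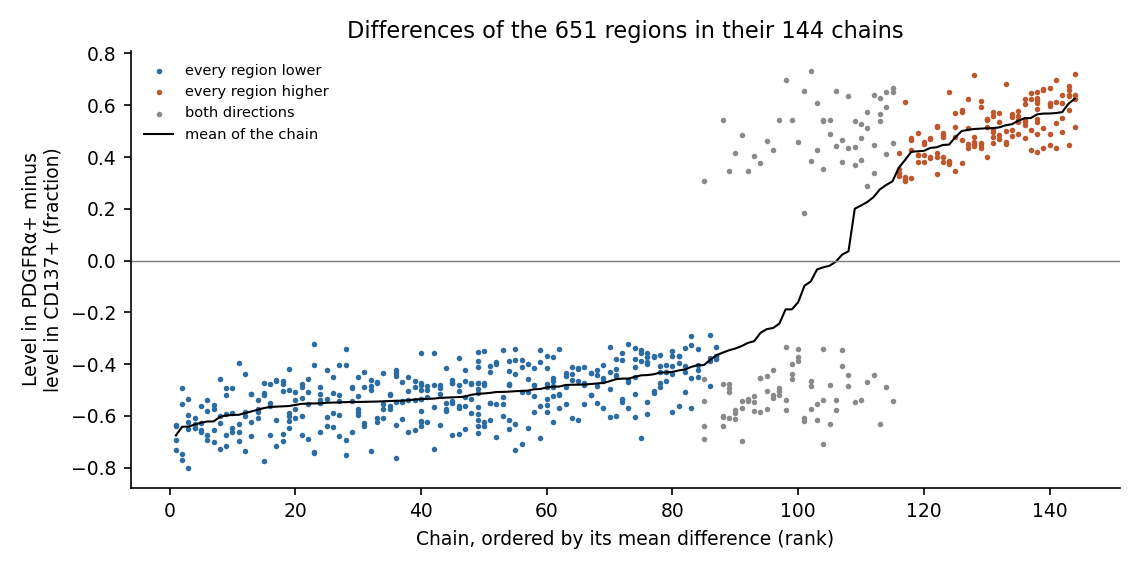
Difference in level, PDGFRα+ minus CD137+ (y axis, fraction), of each region, with the 144 chains ordered along the x axis by their mean difference (black line). The mean differences run from -0.675 to -0.366 in chains lower throughout, from -0.404 to 0.306 in chains with both directions (grey) and from 0.359 to 0.625 in chains higher throughout.

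Of the lists, the one of mesenchymal transcription factors had the highest share of genes with a chain when every gene of a list was counted. There 10 of 38 genes (26.3%) had one, against 0.634% of all protein-coding genes. A listed region was found at 35 of these 38, but at only 6333 of all 20665 protein-coding genes. Among genes with a listed region, 10 of 35 had a chain here, 9 of 25 in the homeobox patterning list and 131 of 6333 over all genes. The order of these 2 lists thus depends on the base. The lists were chosen with earlier results of these data known, so their shares describe the listed genes only. In their chains 5 of the 10 had higher regions only (Tbx18, Tbx2, Foxc1, Foxc2, Ebf3). Lower regions only were found at 4 (Nfia, Nfib, Nfix, Tshz2), and Wt1 had both. In the list of cytoskeleton and adhesion genes Syne2, Lpp and Tns3 had chains, all lower (3 of 38, 7.89%). Over the whole of these genes, 1 of 12, 4 of 19 and 1 of 13 listed regions were higher. In the list of TGF-beta, BMP and Wnt genes only Tcf7l2, a transcription factor gene of Wnt signalling, had a chain (1 of 43, 2.33%). That chain was lower in 5 of 5 regions with mean levels of 0.277 and 0.840, whereas 3 of the 14 listed regions of the gene were higher. Of 27 Hippo and TEAD genes 2 (7.41%) had a chain. Amotl2, which encodes an angiomotin that binds YAP, was lower in 4 of 4 regions (0.270 and 0.819), and Tead2 had 1 lower region of a chain centred on Cd37. That region lay in Cd37 and outside the span of Tead2, within 2000 bases of it. The only other listed region of Tead2 was higher. Of the 26 adipogenic and thermogenic genes 15 had a listed region and 0 a chain, and of the 24 glucocorticoid response genes 16 had a listed region and 0 a chain. Over all genes, 131 of the 6333 with a listed region had a chain, so that 0 is near the overall share for lists of this size.

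The gene named in the title of the study, Tead1, had 8 listed regions, and each of them stood alone, with no neighbour within 5000 bases. Of the sorting markers, Pdgfra had 1 listed region outside any chain, and Tnfrsf9, the gene of CD137, had 0. These genes therefore give no check of the labelled cell types within chains. Among markers of other cell types, Ikzf1 was the only leukocyte gene of 24 with a chain, higher in 4 of 4 regions (0.879, 0.900, 0.931 and 0.931 in PDGFRα+ and 0.376, 0.276, 0.283 and 0.505 in CD137+). Erg was the only endothelial gene of 15, also higher in 4 of 4 regions of its chain (0.894, 0.916, 0.862 and 0.934 against 0.234, 0.483, 0.349 and 0.270). Wt1 was the only mesothelial gene of 10, and 0 of 12 mural genes and 0 of 6 adipocyte markers had a chain. Of 6 progenitor markers only Dcn had one. Over the whole gene, all 5 listed regions of Ikzf1 were higher, whereas Erg had 5 higher and 3 lower. Of all protein-coding genes 0.634% had a chain. A listed region was found at 21 of the leukocyte and 10 of the endothelial genes, and the directions outside chains are not given here. The part of other cell types in the 2 libraries was not tested.

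Most chains that held both directions had 1 region against the others. Of these 29 chains, 21 had a single region against the rest, which lay at an end of the chain in 12 cases and inside it in 9, and 15 chains changed direction only once along their length. The median number of cytosines was 8 in the odd regions and 11 in the other regions of those chains. At Hlx, a homeobox gene of mesenchyme (chr1:184723480-184737051), the first 2 regions were lower (0.522 and 0.248 in PDGFRα+, 0.864 and 0.787 in CD137+). The next 3 were higher (0.751, 0.533 and 0.718 against 0.206, 0.181 and 0.179), and the last was lower (0.261 against 0.971). Hlx thus held a block of higher regions, flanked on both sides by lower ones. In order, the regions held 5, 28, 4, 19, 36 and 4 cytosines, and the closing flank is a single region of 126 bases.

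Rbms1, which encodes an RNA-binding protein, had the same order over 5 regions (chr2:60901877-60908423): 0.0581, 0.564, 0.948, 0.286 and 0.394 in PDGFRα+ against 0.523, 0.180, 0.214, 0.859 and 0.877 in CD137+. Hhipl1, a gene related to the hedgehog-binding Hhip, had 2 lower regions followed by 2 higher ones (chr12:108308504-108318664): 0.299, 0.514, 0.747 and 0.856 against 0.782, 0.958, 0.312 and 0.220. At Nedd4, the gene of a ubiquitin ligase, 2 higher regions (0.880 and 0.624 in PDGFRα+, 0.225 and 0.439 in CD137+) lay between 2 lower ones (0.119 and 0.140 against 0.738 and 0.749; chr9:72653030-72665213). Tlr6, Cd101, Cd37 and Grap2, which encode receptors, a surface protein and an adaptor of leukocytes, also had chains of both directions, with 3, 2, 1 and 1 of 4 regions higher. They were singled out after their values were seen.

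Chains lay in or near protein-coding genes in 116 of 144 cases (80.6%), and 77.4% of their regions did, against 52.7% of regions without a neighbour. The 28 other chains were 2007 to 383190 bases from the nearest protein-coding gene, and 3 of them were higher throughout, 17 lower and 8 of both directions. Whether a region lies in an exon or an intron is not given, since only gene spans were used. Higher regions stood nearer to the ends of genes than lower ones. Within 2000 bases of either end of a protein-coding gene lay 26.2% of the higher and 10.8% of the lower regions of chains, compared with 12.5% and 6.93% over chromosomes 1 to 19. Put the other way, 49 of the 99 regions of chains near a gene end were higher (49.5%), compared with 25% of those further away, and 34.1% and 21.2% over all regions of these chromosomes.

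By median span, genes with higher chains were shorter than genes with lower chains, but not shorter than all genes with a listed region. The median span was 55.0 kb over the 27 genes of higher chains, of which 7 were under 10 kb. It was 120 kb over the 68 genes of lower chains, of which 3 were under 10 kb. The median over 6333 genes with any listed region was 52.2 kb, with 11.1% under 10 kb. No microRNA hairpin of the 1005 in the RefSeq table lay inside a chain or within 2000 bases of one. By chromosome, regions in chains made up 0.812% (chromosome 14) to 3.72% (chromosome 10) of the listed regions.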

How the data were processed

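Whole-genome bisulfite libraries of 2 sorted populations, 1 per group, were compared in a table of differentially methylated regions made by the authors. Per the labels' protocols, DNA was sheared to about 350 bases, converted and amplified. For each library the authors deposited the level as a fraction. The difference and an area statistic are deposited as scores, of which the statistic was not used and the difference was recomputed from the levels. Coordinates refer to mm10 (named in the notes on processing that the submitters gave). Neither the aligner nor the region caller, its thresholds or the depth is stated; each is not given in the sources used here. The caller keeps only regions that differ, so shares describe listed regions only.

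Starts count from 0: in the 86 regions that lie inside a RefSeq promoter window the first base fell in a CG every time when counted so (29 times when counted from 1), and positions are printed from 1. The number of cytosines in those 86 regions never exceeded the CG cytosines of both strands. Of 9 overlapping pairs of regions none was in a chain of 4 or more. Regions of chromosomes X (365) and Y (2) were left out by the rule.

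Regions were sorted, joined at gaps of up to 5000 bases and kept in chains of 4 or more. Protein-coding genes were taken from RefSeq spans on GRCm38.p6 with 2000 bases on either side, and distances to genes refer to these only. The promoter windows matched 106 of the 131 genes at chains. The genes named were those of the 10 chains with the most regions, of the 6 chains with the most regions in each direction, of 4 chains with both directions, of the 3 widest mean differences each way, and list members at a chain, with others chosen after their values were seen. Some items that this rule names are not reported here. The chains, gene lists and measures were chosen with earlier results of these data known. Shares carry Wilson 95% intervals, which cover counting error only. Chaining was checked on simulated regions. Scripts ran in Python 3.11.15, with pandas 2.3.3 and numpy 2.4.6 for the tables, scipy 1.17.1 for intervals and plots from matplotlib 3.10.9.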

Additional observations from a re-analysis of the deposited data

How the results depend on the processing

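The number of chains follows the rule. It was 51 with gaps of up to 2500 bases, 390 with gaps of up to 10000 bases, 564 with chains of 3 or more, 43 with chains of 5 or more and 26 when only regions with an absolute difference of at least 0.5 were chained. The regions in them numbered 230, 1817, 1911, 247 and 113. The percent of chains with a single direction was 90.2, 62.8, 72.2, 88.4 and 88.5 in the same order. The counts change by construction, and the cause of the changes in agreement was not tested. With at least 5 cytosines there were 107 chains, and with every chromosome 145, and 80.4% and 80.0% of them had a single direction. The percent of regions higher in PDGFRα+ stayed between 26.0 and 31.6 under all 10 alternatives tried for it. The percent of chains at a protein-coding gene was 79.9 with overlap only and 83.3 with 10000 bases on either side. No paired analysis was possible because each group had 1 library, and no library could be left out.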
